A study of Mus musculus with 3 samples.

Results

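Cdh1 encodes E-cadherin, the adhesion protein that holds epithelial cells and mouse embryonic stem (ES) cells together. The locus was taken as chromosome 8, 109075000 to 109245000 of the mm9 build, and its members are the deposited FLAG-Tex10 peaks that overlap this 170 kb window by at least 1 base. The members were selected on peak position, in a locus chosen with its peaks known. The window held 8 of the 5189 peaks of the list. Cdh1 itself was placed at about 109127000 to 109194000 on the plus strand, an approximate span of 67.0 kb. No mm9 annotation was used, so distances from the gene start carry an uncertainty of that rounding, and exons and introns were not assigned. The RefSeq gene table of another build, GRCm38.p6, lists Cdh1 with a length of 66898 bp (66.9 kb), which differs from the approximate span by about 0.1 kb.

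The libraries came from ES cells of the J1 line, of 129SV strain, which carried piggyBac vectors for a FLAG-tagged Tex10 expressed as an ectopic transgene (the T10F10 cells). The 3 samples, with 1 library each, were FLAG chromatin immunoprecipitation (ChIP), an IgG immunoprecipitation with normal mouse antibody, and input DNA. All 3 shared the transgene, the line and culture in serum with leukaemia inhibitory factor. The peaks used are those of the FLAG library, and neither the IgG nor the input library was analysed here. The antibody reads the tagged, ectopically expressed protein, and the labels do not say whether the cells were 1 clone.

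E-cadherin is a single-pass membrane protein whose outer part binds E-cadherin on the neighbouring cell in the presence of calcium, and whose inner part binds beta-catenin and p120-catenin. Through alpha-catenin this complex connects to the actin cytoskeleton at adherens junctions. In mouse ES cells it gives colonies their compact shape, its loss loosens them, and its level falls when cells undergo an epithelial to mesenchymal transition, where the repressors Snail and Zeb are known to act on its promoter. The long second intron of mouse Cdh1 is known from reporter studies to hold sequences needed for its expression. Tex10 is a nuclear protein, and the series title connects it with super-enhancer activity, where a super-enhancer is a large cluster of enhancers near a gene that defines the cell type.

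Each peak carries a width and a score. The score is the authors' number, its scale is not named in any source used here, and it served only to rank and filter peaks within this list. The list holds no read counts, so depth is unknown. With 1 library there is no replicate error. Because of how the locus was chosen, all values below are a description and carry no test.

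Most of the tagged Tex10 peaks at Cdh1 lay around the gene start and in the first part of the gene body. Of the 8 peaks, 1 lay upstream of the gene, 6 within the gene span and 1 downstream. All 6 gene peaks lay within the first 18.8 kb, and the remaining 48.2 kb of the span carried 0 peaks. When the span was divided into 4 equal parts of 16.75 kb, these held 5, 1, 0 and 0 peaks from the start of the gene to its end.

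**Figure D1:**
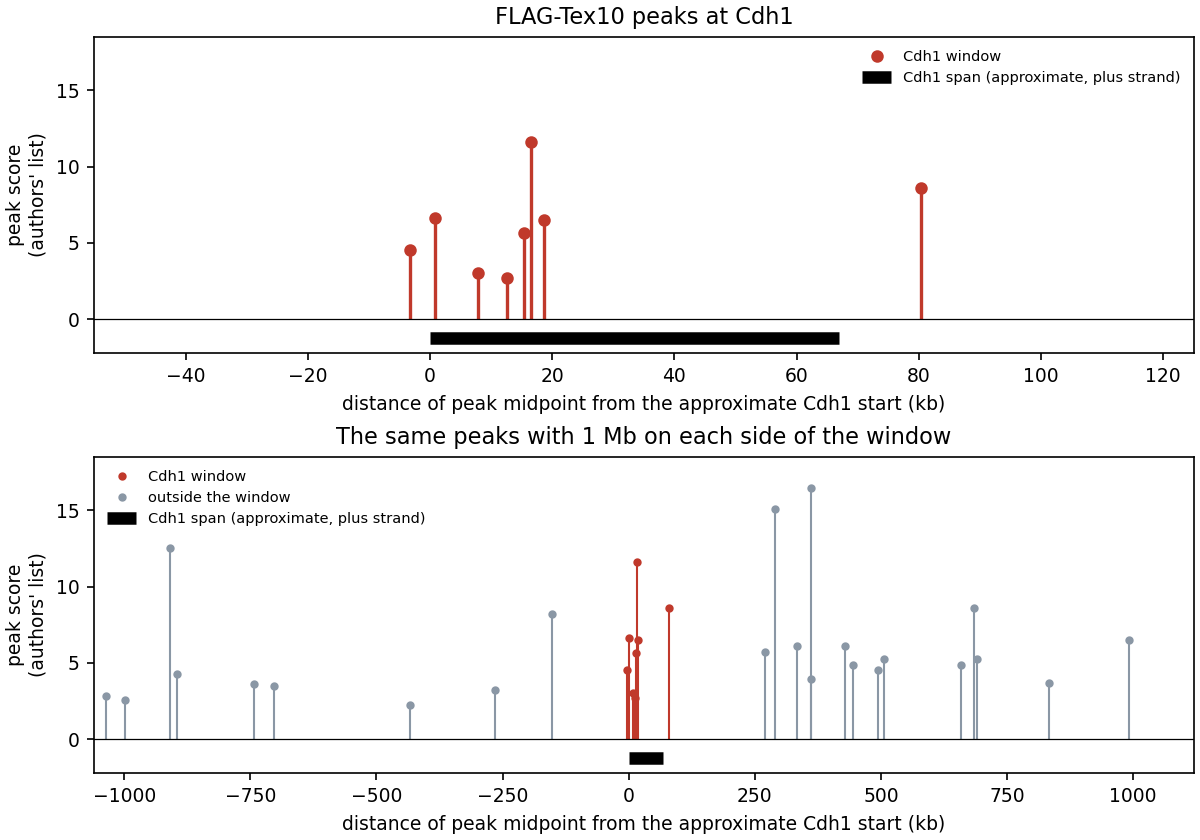
Score of each FLAG-Tex10 peak (vertical axis, as the authors deposited it) against the distance of its midpoint from the approximate Cdh1 start in kb (horizontal axis). The upper panel covers the window and the lower panel adds 1 Mb on each side. Red marks the 8 peaks of the window, grey the peaks outside it and the black bar the gene. In the upper panel 7 peaks stand within 22.3 kb at the start of the gene, and the remaining peak stands alone 13.4 kb beyond its end.

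The peak upstream of the gene spanned 109123541 to 109123765, with a width of 225 bp and a score of 4.52. Its midpoint lay at about −3.35 kb relative to the gene start, and it was 1 bp wider than the narrowest of the 8. Its score was above that of 39.0% of all peaks in the list.

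The peak at the gene start spanned 109127486 to 109128283, with its midpoint about 0.88 kb inside the gene and a score of 6.63. It was the widest of the 8, at 798 bp, and ranked 12 by width among the 443 peaks of chromosome 8 and 92 among all 5189. Its score was not high for that width. Of the 92 peaks at least as wide, itself included, 66 scored higher and 25 lower, and their median score was 10.3. On chromosome 8 the 12 peaks at least as wide had a median score of 6.90, and 6 of them scored higher. By score alone it lay above 66.1% of all peaks.

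Farther into the gene, the pair of weakest peaks followed. The first spanned 109134706 to 109135167, about 7.94 kb from the start, with a width of 462 bp and a score of 3.03. The second spanned 109139440 to 109139737, about 12.6 kb from the start, with a width of 298 bp and a score of 2.69. These scores were above those of 11.5% and 7.13% of all peaks, so both stood below the lower quartile of the list, which was 3.75.

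The strongest peak of the locus lay neither at the gene start nor in the flanks but about 16.6 kb inside the gene, between a pair of narrower peaks. It spanned 109143380 to 109143767, with a width of 388 bp and a score of 11.6, which ranked 53 on chromosome 8 and 573 in the whole list, above 89.0% of all peaks. The narrower peak before it, at 109142235 to 109142458 and about 15.3 kb from the start, had a score of 5.62 and a width of 224 bp, the smallest in the list. The one after it, at 109145568 to 109145798 and about 18.7 kb from the start, had a score of 6.48 and a width of 231 bp. The gaps on either side of the strongest peak were 921 and 1800 bp, the shortest of the locus. These 3 peaks therefore formed its tightest group, and all 3 scored above the median of the list, which was 5.22.

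The last peak, downstream of the gene, spanned 109207191 to 109207550, with a width of 360 bp and a score of 8.61, second among the 8 and above 80.2% of all peaks. It lay about 13.4 kb beyond the end of Cdh1 and 61.4 kb from the nearest other peak of the locus. In the RefSeq table of GRCm38.p6 the gene that follows Cdh1 is Tango6, which is named for a role in transport and Golgi organisation. Since that table belongs to another build, whether this peak lies before or inside Tango6 was not determined. On the other side, Cdh3, which encodes P-cadherin, is the nearest protein-coding gene in that order, with the pseudogene Gm10073 and the long noncoding RNAs 1110028F18Rik and Gm39239 between it and Cdh1. The first 48.5 kb of the window, upstream of the first peak, held 0 peaks.

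The scores of the locus were moderate, with none near the top of the list. Over the 8 peaks the lowest score was 2.69, the median 6.05 and the highest 11.6, against 1.31, 5.30 and 204 over chromosome 8 and 1.31, 5.22 and 432 over all peaks. Of the 8, 5 scored above the list median, where the share was 52.4% of the peaks of chromosome 8 and 50.0% of all peaks. A score of at least 10 was reached by 1 of the 8, where 14.4% of the peaks of chromosome 8 and 14.5% of all peaks reached it. The median width was 329 bp at the locus, 322 bp on chromosome 8 and 314 bp in the whole list. Of the 8 peaks, 3 were within 10 bp of the smallest width, against 12.6% of the peaks of chromosome 8 and 16.2% of all peaks. With 8 peaks, 1 peak more or fewer moves any of these shares widely.

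**Figure D2:**
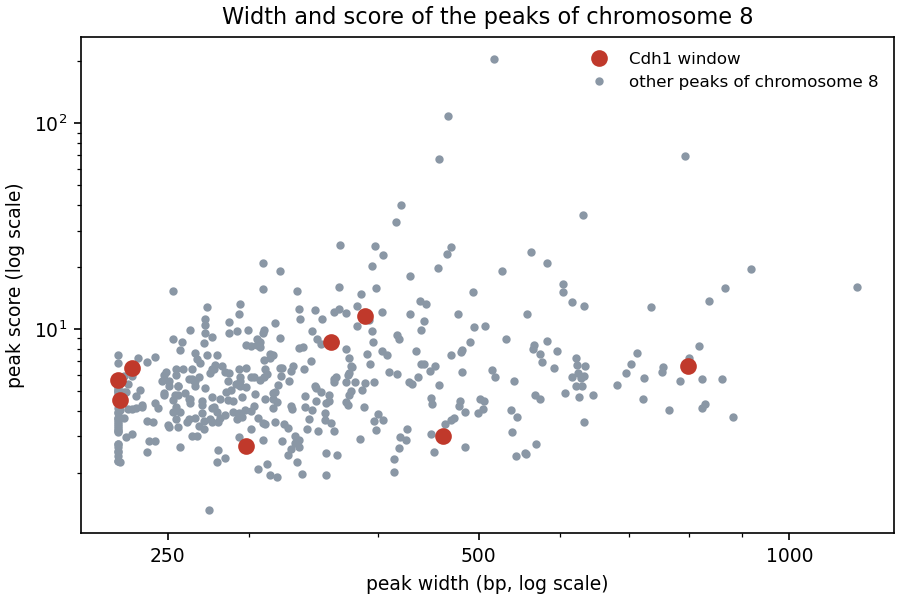
Width in bp (horizontal axis) and score (vertical axis) of the 443 peaks of chromosome 8, both on log scales. Red marks the 8 peaks of the Cdh1 window and grey the others. The red points spread over the cloud from 224 to 798 bp and from 2.69 to 11.6, and none is among the few peaks with the highest scores.

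The peaks around the start of Cdh1 lay close together. Neighbouring peaks were joined at the distance commonly used to build enhancer clusters, which is given with the processing, and the first 7 peaks then formed 1 stretch of 22.3 kb from 109123541 to 109145798. Relative to the gene start it ran from −3.46 to 18.8 kb. Its gaps ranged from 0.92 to 6.42 kb and the next gap was 61.4 kb. Any joining distance between 6.42 and 61.4 kb therefore gives the same stretch. By comparison, the median gap between neighbouring peaks of chromosome 8 was 77.4 kb. Its peaks had a median score of 5.62 and covered 11.8% of its length. Peaks in stretches of at least 3 made up 20.8% of the peaks of chromosome 8 and 11.6% of those on the autosomes, X and Y.

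Among the 23 stretches of at least 3 peaks on chromosome 8, 1 had more peaks than the Cdh1 stretch, and the median stretch had 3. Over the autosomes 4 of 156 stretches had more peaks and 1 other had as many. The Cdh1 stretch was also long, ranking 4 by length on chromosome 8 and 12 on the autosomes, where the median was 8.87 kb. By score it ranked lower. Its highest score ranked 7 of 23 on chromosome 8 and 50 of 156 on the autosomes, and its median score ranked 10 and 68. Its peaks covered a smaller share of its length than in most stretches. The autosomal median of the covered share was 15.4%, and 100 of the 156 stretches exceeded the Cdh1 value. This share also depends on the width and number of the peaks, so it is not a measure of their spacing.

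**Figure D3:**
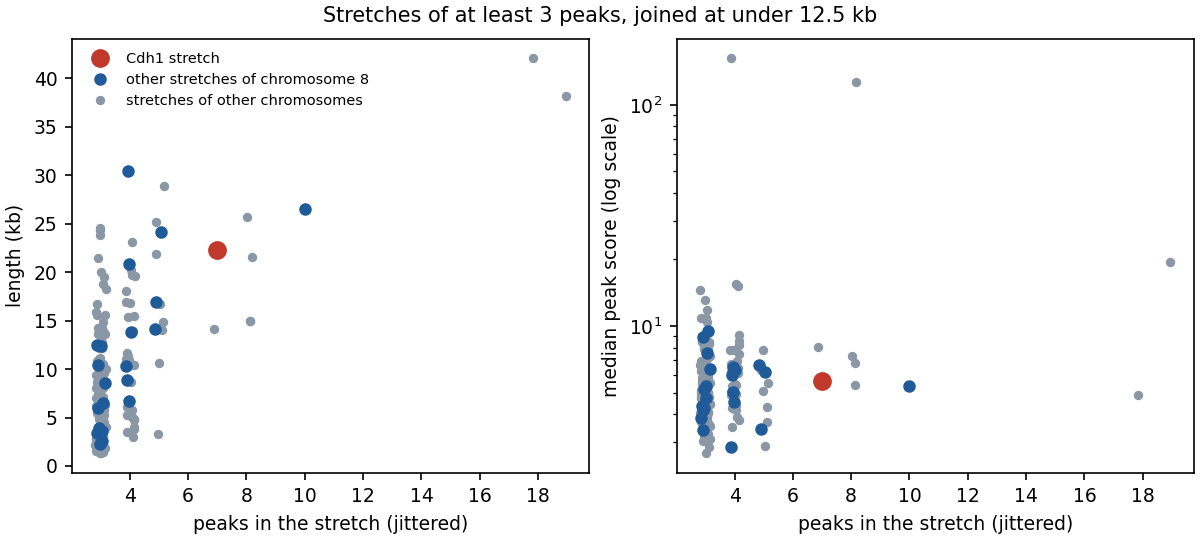
All 161 stretches of at least 3 peaks, by their number of peaks (horizontal axes, jittered sideways) and by length in kb (left) or median score on a log scale (right). Red marks the Cdh1 stretch, blue the other stretches of chromosome 8 and grey those of other chromosomes. Cdh1, with 7 peaks, lies to the right of all but 1 of the blue points, at a median score of 5.62 within their range.

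In all, 9 stretches of the list held at least 7 peaks, Cdh1 included, and they differed in how tightly they were packed. Per 10 kb of stretch, Cdh1 had 3.14 peaks, and the other 8 ranged from 3.11 to 5.34. The other stretch with 7 peaks, on chromosome 10 at 62347065 to 62361157, was 14.1 kb long and had 4.97 peaks per 10 kb, a median score of 8.04 and a highest score of 12.4. Of the 4 stretches with 8 peaks, the one on chromosome 7 (3193483 to 3219224) was packed about as loosely as Cdh1, with 3.11 peaks per 10 kb over 25.7 kb, and its highest score was 19.7. Another, on chromosome 9 at 110848091 to 110863061, had 5.34 peaks per 10 kb over 15.0 kb and a highest score of 10.6. The 8 peaks on chromosome X (93130748 to 93152308) had 3.71 per 10 kb over 21.6 kb and a highest score of 432. Those on chromosome Y (2779656 to 2794646) had 5.34 per 10 kb over 15.0 kb and a highest score of 26.2. The larger stretch of chromosome 8, at 19921556 to 19948073, held 10 peaks over 26.5 kb, or 3.77 per 10 kb, with a highest score of 11.8. The largest stretches held 19 peaks on chromosome 9 (2999953 to 3038171) and 18 on chromosome Y (2853987 to 2896041). Their highest scores were 131 and 13.9. The highest score of the Cdh1 stretch, 11.6, was thus above that of 1 of the other 8 and below that of 7. The genes at these stretches were not named, for want of an mm9 annotation.

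Runs of consecutive peaks were also measured, which need no joining distance. Of the 437 runs of 7 consecutive peaks on chromosome 8, 5 spanned no more than the 22.3 kb of Cdh1, itself included, and the median run spanned 1155 kb. Over the autosomes 22 of 5006 runs were as short or shorter, or 0.44%. Runs overlap each other, so several of these come from the same stretch.

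The window as a whole held 47.1 peaks per Mb, against 3.31 per Mb on chromosome 8 outside it, a ratio of 14.2. Chromosome 8 itself ranked 1 of the 19 autosomes in peaks for its length, and the window lies 82.9% of the way along it, in its denser distal part. Against the part of chromosome 8 beyond the midpoint, at 4.20 peaks per Mb, the ratio was 11.2. Against the other autosomes, at 2.00 peaks per Mb, it was 23.6. The gene span alone held 89.6 peaks per Mb, or 27.0 times the rest of chromosome 8.

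Consecutive windows of 170 kb were laid along each autosome, with the Cdh1 window as one of those on chromosome 8. Of the 774 windows of chromosome 8, 553 (71.4%) were empty, 1 held more peaks than the Cdh1 window and 1 other held as many, so 0.388% of windows had at least 8. Over the 14532 windows of the autosomes, 2 held more and 7 others as many, and 0.0688% had at least 8. The Cdh1 window was placed around a gene chosen with its peaks known while the others were not, which favours it. With the windows of chromosome 8 shifted by 85 kb, the fuller of the 2 windows that shared the locus held 7 peaks, and 3 windows held more.

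**Figure D4:**
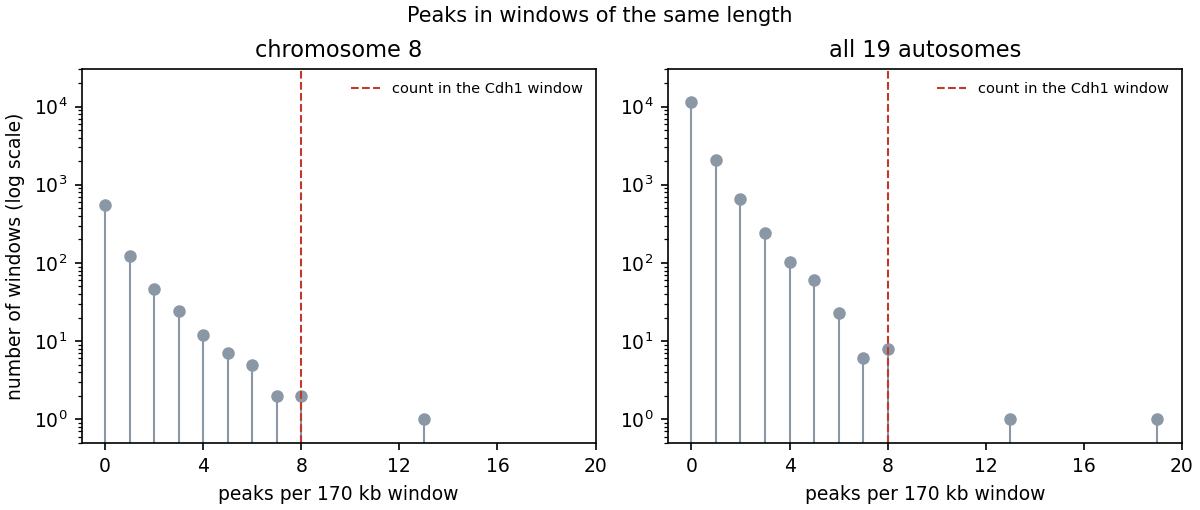
Number of 170 kb windows (vertical axes, log scale) by the number of peaks they hold (horizontal axes), for chromosome 8 on the left and all 19 autosomes on the right. The dashed red line marks the 8 peaks of the Cdh1 window. On chromosome 8 the counts fall off from 553 empty windows to 2 windows at the line and 1 window of 13 peaks beyond it.

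Within 1 Mb of the window the peaks were mostly separate, with at most 2 joined together. The nearest peak before the window lay 99.4 kb from its edge, at 108975242 to 108975579, with a width of 338 bp and a score of 8.19. The nearest after it lay 151 kb from its edge, at 109396366 to 109396627, with a width of 262 bp and a score of 5.69. Measured from the peaks of the locus, the empty distances were 148 kb before and 189 kb after, longer than 62.0% and 68.1% of the gaps on chromosome 8. The 1 Mb before the window held 9 peaks, and none of them was joined to a neighbour. The 1 Mb after it held 14 peaks, of which the strongest scored 16.5, and the largest stretch there had 2 peaks. Both flanks held peaks that scored higher than any at Cdh1, and neither held a group of 3.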

How the data were processed

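Peaks of 1 FLAG ChIP library were used as the authors deposited them: position, width and a score with no named scale. Per the submitters' processing notes, reads were handled on mm9. The same notes name bedtools 2.18.1, SAMtools 0.1.19, Bowtie 1.0.0 and FastQC 0.10.1 without saying what each did. The peak caller, its control and its threshold are not given in the sources used here. Libraries were sequenced as single-end reads, per the labels' protocols, and their depth is unknown.

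Starts are given 1-based. Python 3.11.15 with numpy 2.4.6 and pandas 2.3.3 computed overlaps, gaps, ranks, stretches (peaks less than 12.5 kb apart) and window counts by peak midpoint. Chromosome lengths of mm9 came from GenomeInfoDb 1.38.1. The scripts were tested on simulated peaks. The locus, its window and these measures were chosen with earlier results of these data known, so no test was made. Every peak of the window is named. The planned comparisons with other cadherin and junction genes and with E-box letters in the Cdh1 promoter were not made.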

Additional observations from a re-analysis of the deposited data

How the results depend on the processing

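Of 19 alternative values (17 planned, 2 added after seeing the data), 13 stayed within 1.5 times the value reported and 6 did not. Several of the 13 could not have moved. No gap at the locus was under 921 bp, so joining peaks less than 500 bp apart changed nothing. Every peak lay at least 37.45 kb inside the window, so requiring more overlap changed nothing. Both added values used these settings. A joining distance of 20 kb lies between the gaps of 6.42 and 61.4 kb, so it gave the same stretch. With peaks above the median score of the list, the window held 5 peaks instead of 8 and the largest stretch 3 instead of 7, because the weak peaks that bridged it were removed. With a score of at least 10, the window and the gene span each held 1 peak. The ratio of peak density was 14.2 against chromosome 8, 23.6 against the other autosomes and 27.0 for the gene span alone. With peaks joined at under 5 kb the largest stretch held 5 peaks, from 7.71 to 18.8 kb inside the gene, and 1 stretch of chromosome 8 still had more. Moving the gene edges by 2 kb gave 5 or 6 peaks in the gene span, so the peak at the start depends on the approximate position. No paired analysis was possible because the values come from a single library. Depth is unknown and can limit the list, which leaves out peaks below its threshold, and its effect was not tested.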
